A study of Mus musculus with 18 samples.

Results

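The egg carries proteins on its surface that let a sperm bind and fuse, and it secretes others into the space around it. The 8 genes described here encode such proteins: Cd9, Cd81, Izumo1r, Astl, Plat, Oosp1, Oosp2 and Oosp3. They were chosen by name, by a rule that sets no threshold on a measured value, and are 8 of the 27874 genes in the table. Of the 8, 7 had 1 FPKM or more in 3 or more libraries and were tested, and Cd81 did not. FPKM is the fragment count per exon length and sequencing depth, so levels of different genes can be set side by side per length.

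Libraries were made from pools of 15 mouse oocytes, with 3 replicates per group. Oocytes came from Lsm14b-/- mice (KO) and from wild-type mice (WT), in 3 stages of each genotype. These were the germinal vesicle stage (GV, arrested before meiosis resumes), metaphase I (MI), and a time 14 h after an injection of human chorionic gonadotropin (hCG), the hormone that triggers maturation. The labels write MII for the last group in both genotypes, without stating that every KO oocyte was at metaphase II by then. Strain and age (not given in the sources used here) are unstated, as is whether replicates came from separate mice, so p-values measure the spread between these pools. LSM14B is an RNA-binding protein of cytoplasmic granules, and the title of the series concerns the storage and clearance of maternal mRNA.

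Fertilization in the mouse begins when sperm pass the zona pellucida and meet the egg membrane. There the sperm protein IZUMO1 binds JUNO, the product of Izumo1r, which is held on the membrane by a glycosylphosphatidylinositol (GPI) anchor. The tetraspanin CD9 is needed for the membranes to fuse, and the related tetraspanin CD81 contributes. After fusion, cortical granules release ovastacin, the protease encoded by Astl, which cleaves the zona protein ZP2 so that further sperm do not bind. Plat encodes tissue plasminogen activator, a secreted serine protease whose mRNA is stored with a short poly(A) tail in GV oocytes and is known to gain a longer one when meiosis resumes. Oosp1, Oosp2 and Oosp3 encode small oocyte-secreted proteins of 1 family.

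The depth recovered from the FPKM values was 14227763 to 17183681 reads per library, so that 1 read in a gene of 1 kb was worth 0.0582 to 0.0703 FPKM. Whether this depth counts all mapped reads or only reads in genes is not given in the sources used here. Lsm14b had 0 to 10 reads in each KO library and 84 to 548 in each WT library. Summed FPKM of the 10 oocyte markers was 5880 to 23364 per library, and that of the 16 cumulus and granulosa cell markers 5.39 to 12.5. KO GV replicates 2 and 3 stood apart: over the tested genes, log2 deviations from their group mean had an SD of 0.52 and 0.48, against 0.19 to 0.33 in the 15 libraries of the other groups. The labels state that cDNA synthesis was primed with oligo(dT), so a lower value can mean fewer mRNA molecules or shorter poly(A) tails. Which of the 2 applies was not tested for any gene here, and less RNA per oocyte cannot be told apart from a smaller share of the RNA.

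Oosp1 was among the most abundant transcripts of the oocyte, with a mean of 3941 FPKM over the 18 libraries and rank 13 among all genes. Oosp3, Oosp2, Plat, Astl and Cd9 followed with means of 355, 300.1, 299.8, 194 and 162 FPKM, and Izumo1r had 69.2 FPKM. Izumo1r, the lowest of these 7, lay at percentile 97.7 of all genes. Cd81 averaged 0.191 FPKM, from 1 to 22 reads per library. Of the 2 egg tetraspanins, Cd9 was thus the one measured at a high level.

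**Figure D1:**
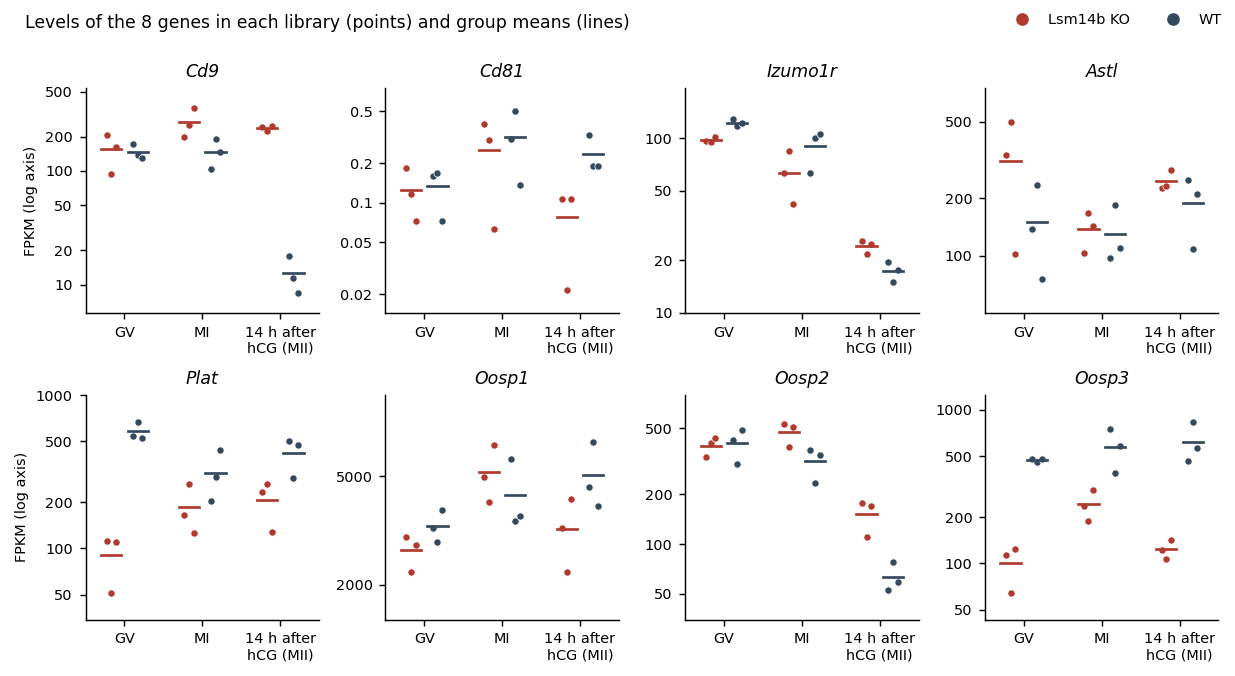
Level of each of the 8 genes in FPKM (log axes that differ between panels) by stage, with Lsm14b KO left of WT at each stage. Points are libraries (3 per group) and lines are group means; 14 h after hCG the 3 KO libraries of Cd9 lie at 223 to 251 FPKM and the 3 WT libraries at 8.39 to 17.9 FPKM.

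Cd9 (ENSMUSG00000030342, chr6:125460266-125494791, minus strand, mm10) differed most between the genotypes at the last stage. At GV its level was 208, 94.4 and 164 FPKM in KO oocytes and 171, 138 and 130.3 FPKM in WT oocytes. The groups overlapped, and the fitted log2 change was 0.02 (SE 0.32, adjusted p = 0.970). At MI, KO oocytes held 198, 256 and 358 FPKM and WT oocytes 105, 192 and 145 FPKM. All 3 KO libraries lay above the 3 WT libraries, but the difference missed the threshold of 0.05 (log2 change 0.87, SE 0.32, adjusted p = 0.0656). It passed in 3 of 29 alternative fits, with median-of-ratios scaling, with quantile normalization and without KO GV replicate 2 (adjusted p = 0.0457, 0.0377 and 0.0292). The range of adjusted p over all alternatives was 0.0292 to 0.250.

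In the last group, 14 h after hCG, Cd9 stood at 246, 223 and 251 FPKM in KO oocytes and at 17.9, 11.5 and 8.39 FPKM in WT oocytes. The lowest KO library thus lay far above the highest WT library, and the KO libraries lay close to each other. The mean was 239.7 ± 15.1 FPKM in KO and 12.6 ± 4.85 FPKM in WT (SD, n = 3 each), a log2 change of 4.20 (SE 0.32, adjusted p = 4.09e-08). This is an 18.4-fold higher level on the fitted scale. The WT values still rest on 279 to 617 reads per library. Of the 50-base stretches of the coding Cd9 transcript, 15.5% occur also in the pseudogene Cd9-ps or in Gm26728, a transcript on the opposite strand that covers 10.7% of the Cd9 exon bases. Gm26728 was listed at 0 to 0.0681 FPKM, and Cd9-ps has no row in the table analysed here.

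Cd81 (ENSMUSG00000037706, chr7:143052739-143067934, plus strand) was at the limit of detection in every group. Its levels were 0.184, 0.118 and 0.0722 FPKM in KO GV oocytes and 0.160, 0.169 and 0.0732 FPKM in WT GV oocytes. At MI they were 0.401, 0.303 and 0.0631 FPKM in KO and 0.309, 0.504 and 0.136 FPKM in WT. At 14 h after hCG they were 0.106, 0.0215 and 0.106 FPKM in KO, from 5, 1 and 5 reads, and 0.330, 0.190 and 0.192 FPKM in WT, from 16, 9 and 9 reads. The 3 KO libraries lay below the 3 WT libraries at that stage, while the groups overlapped at GV and MI. In a fit without the filter on low values, the log2 change at 14 h was -0.20 (SE 0.11, adjusted p = 0.356), and no comparison called Cd81. The means at 14 h were 0.0780 FPKM in KO and 0.237 FPKM in WT. The fit works on log2(FPKM + 1), where changes of values this low are understated. With so few reads as well, it cannot decide whether Cd81 differed.

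Izumo1r (ENSMUSG00000031933, chr9:14885814-14903949, minus strand) was not called between the genotypes at any stage. At GV it stood at 96.8, 95.2 and 102 FPKM in KO oocytes and at 129, 117 and 122 FPKM in WT oocytes. All KO libraries were lower, by 0.32 on the log2 scale, a difference that did not pass (log2 change -0.32, SE 0.25, adjusted p = 0.347). At MI it stood at 62.9, 84.8 and 41.9 FPKM in KO and at 63.6, 99.8 and 106 FPKM in WT, with overlap (-0.52, SE 0.25, adjusted p = 0.162). In the last group it stood at 25.6, 21.6 and 24.8 FPKM in KO and at 19.4, 14.9 and 17.6 FPKM in WT. All KO libraries were then higher, and the difference again did not pass (log2 change 0.45, SE 0.25, adjusted p = 0.188). Of the 29 alternatives, the fit with library weights called Izumo1r at GV (-0.38, adjusted p = 0.00693) and at 14 h after hCG (0.47, adjusted p = 0.0269). That fit called 67.5% and 51.8% of all genes at these stages.

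Astl (ENSMUSG00000050468, chr2:127338639-127357651, plus strand) varied widely between replicates. At GV it stood at 335, 499 and 103 FPKM in KO oocytes and at 139, 235 and 75.5 FPKM in WT oocytes, a log2 change of 0.93 (SE 0.48, adjusted p = 0.160). At MI it stood at 103, 167 and 144 FPKM in KO and at 97.1, 184 and 111 FPKM in WT (0.11, SE 0.48, adjusted p = 0.909). In the last group it stood at 226, 232 and 279 FPKM in KO and at 249, 109 and 209 FPKM in WT (0.45, SE 0.48, adjusted p = 0.524). The groups overlapped at all 3 stages. In KO GV oocytes the highest and lowest replicates were replicates 2 and 3, the 2 libraries that stood apart from their group. Without replicate 3 the GV difference passed, with a log2 change of 1.59 (SE 0.41, adjusted p = 0.00585), in a fit that called 4130 of 10320 genes at GV. Without replicate 2 it was 0.46 and did not pass (SE 0.47, adjusted p = 0.568). The fit with library weights called it as well (1.19, adjusted p = 1.99e-05), and called 6964 genes at GV.

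Plat (ENSMUSG00000031538, chr8:22757727-22782844, plus strand) was lower in KO oocytes at GV. It stood at 112, 51.4 and 109.9 FPKM in KO and at 547, 675 and 525 FPKM in WT. Every KO library lay far below every WT library. The mean was 91.1 ± 34.5 FPKM in KO and 582 ± 80.8 FPKM in WT (SD, n = 3 each), a log2 change of -2.74 (SE 0.37, adjusted p = 0.000101), or a 6.67-fold lower level. Without KO GV replicate 2, the lowest of the 3, the log2 change was -2.37 (adjusted p = 0.000373), and without KO GV replicate 3 it was -2.91 (adjusted p = 9.97e-05).

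At MI, Plat stood at 165, 264 and 127 FPKM in KO and at 204, 293 and 437 FPKM in WT, with overlap (-0.74, SE 0.37, adjusted p = 0.182). By 14 h after hCG it stood at 233, 265 and 127 FPKM in KO and at 499.9, 287 and 475 FPKM in WT. The 3 KO libraries lay below the 3 WT libraries, the nearest pair being 265 FPKM in KO and 287 FPKM in WT. The log2 change of -1.03 (SE 0.37) passed narrowly, with an adjusted p of 0.0428. It did not pass in 10 of the 29 alternatives, among them the fits without KO replicate 1 or 3 or WT replicate 1 or 3 of this stage (adjusted p = 0.0617, 0.203, 0.143 and 0.132). It was also lost without KO MI replicate 1, WT GV replicate 1 or WT MI replicate 2 (adjusted p = 0.0520, 0.0526 and 0.0520), and over all alternatives its adjusted p ranged from 0.00125 to 0.203.

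Oosp1, Oosp2 and Oosp3 lie side by side on chromosome 19. Oosp2 (ENSMUSG00000055895, chr19:11647279-11660559) and Oosp1 (ENSMUSG00000041857, chr19:11667460-11691150) are on the minus strand, 6.90 kb apart. Oosp3 (ENSMUSG00000055933, chr19:11697055-11711874) starts 5.91 kb beyond Oosp1 and runs on the plus strand. No 50-base stretch of Oosp1 or Oosp2 occurs in any other annotated transcript, and 1.58% of those of the coding Oosp3 transcript occur in Gm19224, which overlaps it on the opposite strand. The strand of the libraries is not given in the sources used here.

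Oosp3 was lower in KO oocytes at all 3 stages. At GV it stood at 114, 64.4 and 123 FPKM in KO and at 481, 455 and 477 FPKM in WT. At MI it stood at 237, 188 and 300.0 FPKM in KO and at 754, 385 and 579.9 FPKM in WT. At 14 h after hCG it stood at 123, 107 and 143 FPKM in KO and at 461, 838 and 567 FPKM in WT. The groups did not overlap at any stage. The log2 changes were -2.27 at GV (SE 0.30, adjusted p = 7.27e-05), -1.21 at MI (SE 0.30, adjusted p = 0.00861) and -2.28 at 14 h after hCG (SE 0.30, adjusted p = 1.75e-05). At GV the log2 change was -1.98 without KO GV replicate 2 (adjusted p = 0.000255) and -2.44 without KO GV replicate 3 (adjusted p = 6.26e-05). With median-of-ratios scaling the MI difference no longer passed (log2 change -1.01, adjusted p = 0.0886).

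Oosp2 was higher in KO oocytes at the last stage. It stood at 336, 404 and 436 FPKM in KO GV oocytes and at 422, 304 and 485 FPKM in WT GV oocytes, with overlap (log2 change -0.02, SE 0.26, adjusted p = 0.955). At MI it stood at 531, 383 and 509 FPKM in KO and at 369.7, 233 and 343 FPKM in WT. All KO libraries were higher, and the difference did not pass (0.60, SE 0.26, adjusted p = 0.127). By 14 h after hCG it stood at 178, 109.7 and 169 FPKM in KO and at 52.5, 77.9 and 59.2 FPKM in WT. The groups did not overlap, and the log2 change was 1.24 (SE 0.26, adjusted p = 0.00159), a 2.37-fold higher level.

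Oosp1 stood at 2992, 2228 and 2784 FPKM in KO GV oocytes and at 3239.9, 2878 and 3760.1 FPKM in WT GV oocytes (log2 change -0.31, SE 0.29, adjusted p = 0.447). At MI it stood at 4972, 4014 and 6549.6 FPKM in KO and at 5795, 3435 and 3582 FPKM in WT (0.29, SE 0.29, adjusted p = 0.535). By 14 h after hCG it stood at 3236, 2227 and 4135 FPKM in KO and at 4552, 6665 and 3900.0 FPKM in WT (-0.66, SE 0.29, adjusted p = 0.0919). The groups overlapped at every stage.

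Because the 3 Oosp genes shared a library, their ratio does not depend on how libraries were scaled. In KO oocytes Oosp1 FPKM was 22.6 to 34.6 times that of Oosp3 at GV, 20.9 to 21.8 times at MI and 20.9 to 29.0 times at 14 h after hCG. In WT oocytes it was 6.32 to 7.89, 6.18 to 8.92 and 6.88 to 9.87 times at the same stages. Every KO library thus lay above every WT library. Oosp3 made up 2.39% to 4.37% of the summed FPKM of the 3 genes in the KO libraries and 9.10% to 12.9% in the WT libraries. Oosp2 made up 3.81% to 5.02% of the sum in KO oocytes 14 h after hCG and 1.03% to 1.31% in WT oocytes of that stage. These shares restate the levels given above and are a description, with no test.

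**Figure D2:**
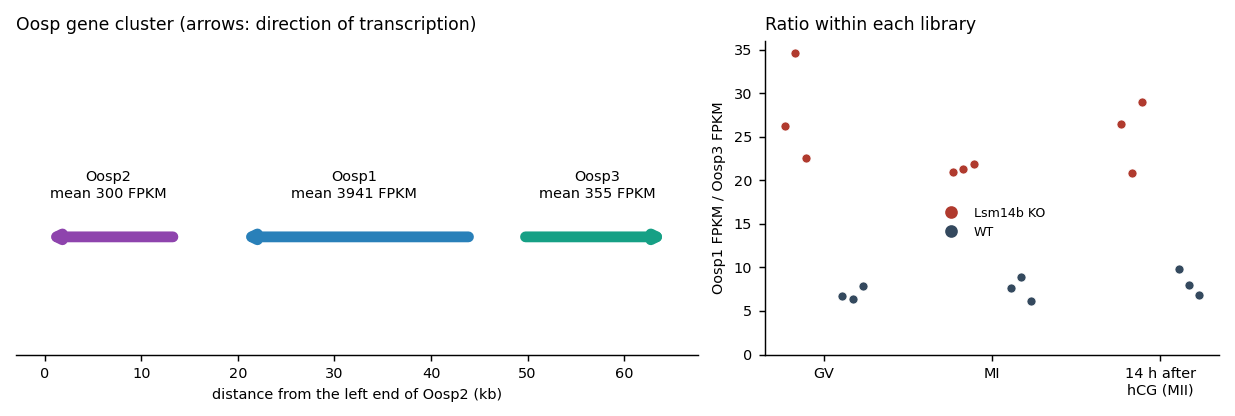
Left, the Oosp cluster with its 3 genes as arrows in the direction of transcription, in kb from the left end of Oosp2, with the mean FPKM over 18 libraries above each. Right, the ratio of Oosp1 to Oosp3 FPKM in each library by stage, KO left of WT, which is 20.9 to 34.6 in the KO libraries and 6.18 to 9.87 in the WT libraries.

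Counted together, 2 of the 7 tested members were called at GV (Plat and Oosp3, both lower in KO), where 20.8% of all tested genes were called and 7.49% were called lower. At MI 1 of 7 was called (Oosp3, lower), where 17.3% of genes were called and 13.7% lower. Of the 7, 4 were called at 14 h after hCG (Cd9 and Oosp2 higher, Oosp3 and Plat lower), where 28.6% of genes were called, 14.9% higher and 13.8% lower. The median log2 change of the 7 was -0.31, 0.11 and 0.45 at GV, MI and 14 h after hCG, and that of all genes 0.17, -0.13 and 0.01. Among all called genes, 64.0%, 21.0% and 52.0% were higher in KO at these stages, and with median-of-ratios scaling 43.0%, 43.1% and 52.9%. The called members were spread over both directions at the last stage.

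**Figure D3:**
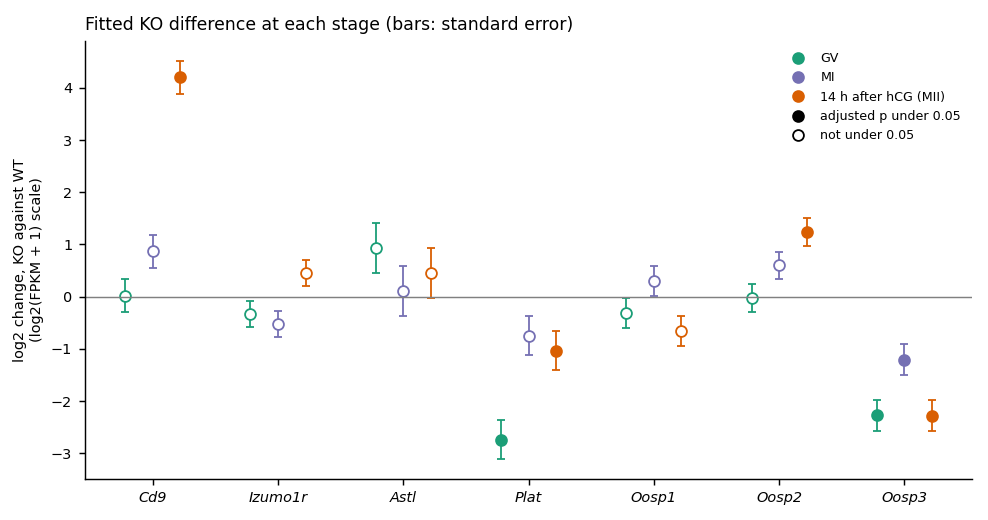
Fitted log2 change of KO against WT (log2(FPKM + 1) scale) for the 7 tested genes at GV, MI and 14 h after hCG, left to right within each gene, with bars of 1 standard error and filled points where the adjusted p was under 0.05. Oosp3 is below 0 with a filled point at all 3 stages, and the highest point is Cd9 at 14 h after hCG, at 4.20.

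The 3′ ends of the transcripts are shown because poly(A) control acts there: CPEB1 binds the cytoplasmic polyadenylation element (CPE), which works together with the hexamer that marks the cleavage site. The last 200 bases of the longest coding transcript of each gene were searched on the sense strand for TTTTAT or TTTTAAT (CPE) and for AATAAA or ATTAAA (hexamer). Plat has 2 CPE matches, Oosp3 5, Oosp1 1 and Cd81 1, and Cd9, Izumo1r, Astl and Oosp2 have no match in this window. All 8 have a hexamer. Of 8563 tested genes with a coding transcript of at least that length, 29.97% hold a CPE match, 84.3% a hexamer and 26.3% both. For Oosp2 and Oosp3, whose 3′ UTRs have 138 and 175 bases, the window reaches into coding sequence. A match is a description of these letters and not a site in use.

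For the members that differed between the genotypes, 30 bases of the 3′ UTR are given below in the sense direction from the GENCODE transcripts, on mm10 coordinates. Capitals mark the CPE match, the hexamer or both.
Plat CPE (chr8:22782745-22782774): gtatatttataTTTTAATctattttagttt
Plat hexamer (chr8:22782804-22782833): ctgtacttaaatAATAAAttcagaggtatt
Oosp3 CPE run (chr19:11711741-11711770): tgcatgTTTTAATTTTATTTTAATatactc
Oosp3 hexamer and last CPE (chr19:11711829-11711858): cacaacctataAATAAAacaTTTTATtgta
Cd9 hexamer (chr6:125460268-125460297): aatttgatacatAATAAAagattataacag
Oosp2 hexamer (chr19:11647288-11647317): atacatcaatgaAATAAAggctcagcttat
The Plat CPE begins 60 bases before its hexamer. In Oosp3 a run of 3 overlapping CPE matches begins 112 bases from the transcript end, a further match lies between it and the hexamer, and the last follows the hexamer. Plat and Oosp3, lower in KO at GV, have CPE matches, and Cd9 and Oosp2, higher in KO at 14 h after hCG, have none. Of the tested genes not called between the genotypes at any stage, Oosp1 has 1 match, and Izumo1r and Astl have none. Cd81, too low to be tested, has 1. With 8 genes this is a description, with no test.

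Over maturation in WT oocytes, 3 of the 7 genes fell between MI and 14 h after hCG. Cd9 averaged 146 ± 21.5, 147 ± 43.8 and 12.6 ± 4.85 FPKM at GV, MI and 14 h after hCG, and fell by 3.46 on the log2 scale over the last step (SE 0.32, adjusted p = 1.08e-07). Izumo1r averaged 123 ± 5.94, 89.8 ± 22.9 and 17.3 ± 2.29 FPKM and fell by 2.28 (SE 0.25, adjusted p = 8.1e-07). Oosp2 averaged 404 ± 91.6, 315 ± 72.3 and 63.2 ± 13.2 FPKM and fell by 2.29 (SE 0.26, adjusted p = 1.54e-06). The same 3 were called against GV, with log2 changes of -3.49, -2.77 and -2.65. Of all tested genes, 33.0% were called between MI and 14 h, 28.0% lower, and 57.7% between GV and 14 h, 28.8% lower. Of the genes called between MI and 14 h in WT, 15.2% were higher, against 45.6% with median-of-ratios scaling, 60.5% with quantile normalization and 29.6% with TPM scaling. Between GV and MI 0 of the 7 were called in WT (limma, adjusted p under 0.05), where 4.82% of genes were, and Plat had an unadjusted p of 0.0180.

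The other 4 genes kept high levels in WT oocytes 14 h after hCG. Astl averaged 149.6 ± 80.1, 131 ± 47.0 and 189 ± 72.5 FPKM at GV, MI and 14 h after hCG. Plat averaged 582 ± 80.8, 312 ± 118 and 420.5 ± 117 FPKM, Oosp1 3293 ± 444, 4271 ± 1322 and 5039 ± 1445 FPKM, and Oosp3 471 ± 13.8, 573 ± 184 and 622 ± 195 FPKM (SD, n = 3 each). None of these steps was called. The family members Oosp2 and Oosp3 thus stood at like levels in WT GV oocytes, 404 and 471 FPKM, and at 63.2 and 622 FPKM 14 h after hCG.

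In KO oocytes Izumo1r and Oosp2 fell as well. Izumo1r averaged 97.9 ± 3.45, 63.2 ± 21.4 and 24.0 ± 2.12 FPKM at GV, MI and 14 h after hCG, with log2 changes of -1.31 over the last step (SE 0.25, adjusted p = 0.00126) and -1.99 from GV (SE 0.25, adjusted p = 3.83e-06). Oosp2 averaged 392 ± 51.1, 474 ± 79.7 and 152 ± 37.0 FPKM, with changes of -1.65 (SE 0.26, adjusted p = 0.000266) and -1.38 (SE 0.26, adjusted p = 0.000403). Cd9 averaged 155 ± 57.1, 270.3 ± 80.9 and 239.7 ± 15.1 FPKM, and no step was called.

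Oosp3 and Oosp1 rose over the first step in KO oocytes. Oosp3 averaged 101 ± 31.7, 242 ± 56.0 and 124 ± 17.9 FPKM, and Oosp1 2668 ± 395, 5179 ± 1280.3 and 3199 ± 954 FPKM. Oosp3 rose by 1.29 on the log2 scale between GV and MI (SE 0.30, adjusted p = 0.00675), a call lost when only the groups compared were fitted (adjusted p = 0.0762). Oosp1 rose by 0.94 (SE 0.29, adjusted p = 0.0362), a call lost in 7 of 29 alternatives, with adjusted p of up to 0.148, among them those without KO GV replicate 1 or 2 or KO MI replicate 1 or 3 (adjusted p = 0.0556, 0.0835, 0.0894 and 0.139). Oosp3 fell over the next step by 0.94 (SE 0.30, adjusted p = 0.0449), which was lost in 15 of 29 alternatives, with adjusted p of up to 0.181. Among these were the fits without any 1 of the 3 KO libraries at 14 h after hCG, of the 3 WT GV libraries, of KO GV replicate 1, KO MI replicates 1 and 3, WT MI replicate 3 and WT replicate 3 at 14 h after hCG (adjusted p = 0.0514 to 0.181). Plat averaged 91.1 ± 34.5, 185 ± 70.6 and 208 ± 71.8 FPKM and rose by 1.20 between GV and 14 h after hCG (SE 0.37, adjusted p = 0.0157). That call was lost in 5 of 29 alternatives, among them those without KO GV replicate 2 or replicates 1 or 2 at 14 h (adjusted p = 0.0829, 0.0622 and 0.0761). Among all genes in KO oocytes, 13.0% were called between GV and MI (2.53% higher), 11.9% between MI and 14 h (10% lower) and 37.2% between GV and 14 h (11.9% higher and 25.4% lower), where 2, 3 and 3 of the 7 were. The share of these calls that was higher was 19.5%, 15.8% and 31.9%, against 32.8%, 29.4% and 47.5% with median-of-ratios scaling and 43.2%, 45.0% and 59.4% with quantile normalization. From GV to 14 h, 1224 genes were called higher and 2618 lower in the main fit. With quantile normalization these counts were 3078 and 2105, so the more frequent direction depended on the scaling. Members' medians over these steps were 0.83, -0.71 and 0.23, and those of all genes -0.03, -0.07 and -0.07.

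**Figure D4:**
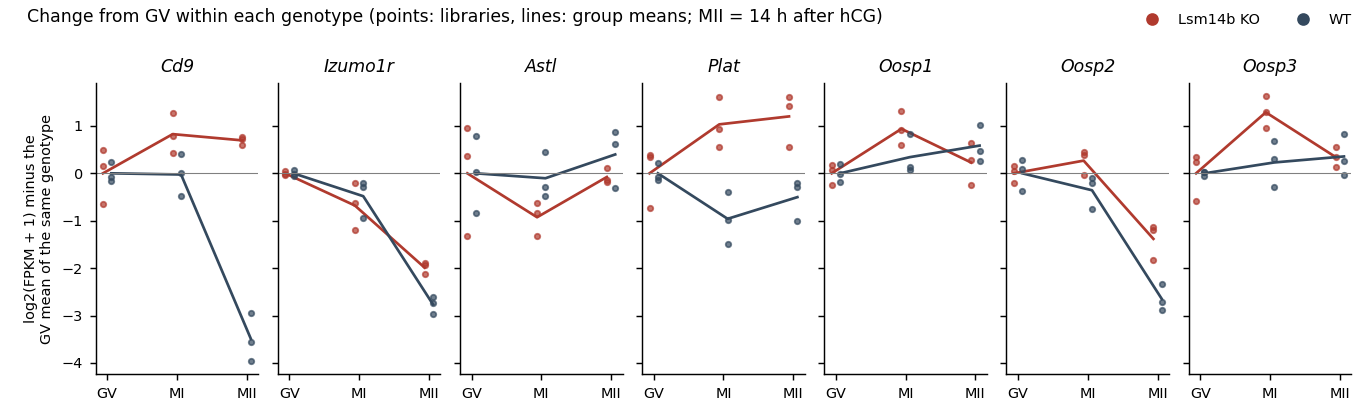
Change of each tested gene from the GV mean of its own genotype, in log2(FPKM + 1), at GV, MI and MII (14 h after hCG), with points for libraries (KO left of WT) and lines through group means. The WT line of Cd9 falls by 3.49 while the KO line ends 0.69 above its start, and the lines of Izumo1r and Oosp2 fall in both genotypes.

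Whether a change over maturation differed between the genotypes was tested by the difference of the 2 changes, KO minus WT. Cd9 was the only 1 of the 7 called. Its change from MI to 14 h after hCG was 3.33 higher in KO on the log2 scale (SE 0.45, adjusted p = 0.00027), where 4.36% of genes were called (4.33% higher), and its change from GV was 4.18 higher (SE 0.45, adjusted p = 3.29e-05), where 5.61% of genes were (3.88% higher). For Oosp2 the change from GV to 14 h was 1.27 higher in KO (SE 0.37, adjusted p = 0.0519), which missed the threshold here and passed in 8 of the 29 alternatives, with adjusted p of 1.2e-05 to 0.125. Among these were the fits without KO GV replicate 3, KO replicate 2 at 14 h, WT GV replicate 2 or WT MI replicate 2 (adjusted p = 0.0179, 0.0351, 0.0483 and 0.0477). For Plat it was 1.70 higher (SE 0.52, adjusted p = 0.0603), with 5 alternatives past the threshold, among them those without KO GV replicate 3 or KO replicate 3 at 14 h (adjusted p = 0.0176 and 0.0373), and adjusted p of 0.00169 to 0.168. For Izumo1r it was 0.78 higher (SE 0.35, adjusted p = 0.158), and for Oosp1 -0.36 (SE 0.41, adjusted p = 0.586) and Astl -0.48 (SE 0.68, adjusted p = 0.674). For Oosp3 it was -0.01 (SE 0.42, adjusted p = 0.988). With library weights the difference was called for Izumo1r (0.85, adjusted p = 0.00217) and for Astl (-0.93, adjusted p = 0.0306), in a fit that called 5312 genes. From GV to MI 0 of the 7 were called in limma, where 0.0775% of genes were, with unadjusted p of 0.00122 for Plat (difference 1.99, SE 0.52) and 0.0211 for Oosp3 (1.06, SE 0.42). Without KO GV replicate 3 the Plat difference was called (2.17, SE 0.54, adjusted p = 0.0322), in a fit that called 719 genes, or 6.97%, against 8 with all libraries. The voom fit of recovered reads called 0 of the 7 here, and 4 genes in all. These comparisons share their WT and KO libraries and are not independent of each other.

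Set in order, the 6 group means of each gene gave different pictures. For Cd9, KO MI was highest, with KO at 14 h next. KO GV, WT MI and WT GV overlapped in turn at 155, 147 and 146 FPKM, and WT at 14 h stood alone at the low end, with no library in the range of the next group. For Izumo1r both groups of 14 h lay below all others without overlap. For Plat the order ran from WT GV to KO GV, with WT at 14 h, WT MI, KO at 14 h and KO MI between, and each neighbour among these 4 overlapped the next. For Oosp3 all 3 WT groups lay above all 3 KO groups. The 6 groups of Astl overlapped each neighbour, as did those of Oosp1.

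By a fixed rule, the 2 coding genes with the most similar profile were named for each member, from Pearson's r of log2(FPKM + 1) over the 18 libraries among 3934 genes with a mean of at least 5 FPKM. The libraries share stage and genotype, so r is a description. For Cd9 these were Ube2a, a ubiquitin-conjugating enzyme gene (r = 0.957), and Polr3k, a subunit gene of RNA polymerase III (0.949). Ube2a averaged 49.1 FPKM in KO and 5.81 FPKM in WT oocytes 14 h after hCG. For Oosp3 they were Pfdn4, a prefoldin subunit gene (0.938), and Pdcl3 (0.936), and for Plat Baiap2l1 (0.923) and Zdhhc13 (0.908). For Izumo1r they were Cdk20 (0.989) and Fbp1 (0.985), and for Oosp2 Mrps33, a mitochondrial ribosomal protein gene (0.979), and Cyb5a (0.976). Astl and Oosp1 had less similar neighbours, Nudcd3 and P4hb (0.880 and 0.876) and Rgs2 and Dpy30 (0.876 and 0.831).

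Other genes of the same processes were counted from lists written for this comparison. Of 27 other tetraspanins, their partners and integrins, 16 were tested. Of these, 6 were higher and 1 lower in KO 14 h after hCG, with a median log2 change of 0.41, where 28.6% of all tested genes were called, 14.9% higher and 13.8% lower. Tspan14 averaged 225 ± 33.4 FPKM in KO and 59.9 ± 28.2 FPKM in WT (log2 change 2.01, adjusted p = 0.00131), and Tspan13 28.9 ± 1.47 and 11.8 ± 3.33 FPKM (1.25, adjusted p = 0.000611). Tspan12 and Tspan3, with 10.7 and 10.4 FPKM in KO and 3.12 and 2.45 FPKM in WT, were also higher. The 1 lower gene, named after its value was seen, was the integrin gene Itga9 (-1.18, adjusted p = 0.0108). At GV 4 of the 16 were higher and 1 lower, and at MI 2 and 2, where 20.8% and 17.3% of all genes were called.

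Of 30 genes of folate receptors and GPI anchoring, 19 were tested, and 4 were higher and 1 lower in KO at 14 h after hCG (median 0.22). These 5 of 19 are near the share of all genes called at that stage, 28.6%. Dpm2, a subunit of the dolichol-phosphate-mannose synthase that feeds anchor synthesis, averaged 12.4 ± 4.30 FPKM in KO and 4.07 ± 0.457 FPKM in WT (log2 change 1.35, adjusted p = 0.0015). Pigs, a subunit of the transamidase that attaches the anchor, averaged 9.48 ± 1.96 and 2.35 ± 0.970 FPKM (1.67, adjusted p = 0.00552). The 1 lower gene, Pigf, averaged 10.2 ± 1.22 and 18.5 ± 4.98 FPKM. At GV 1 was higher and at MI 1 was lower, fewer than the 20.8% and 17.3% of all genes.

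The plasminogen activator list had 3 tested genes of 13 listed. The inhibitor gene Serpini1 was higher in KO at 14 h after hCG, with 11.7 ± 1.13 FPKM in KO and 4.36 ± 0.101 FPKM in WT (log2 change 1.24, adjusted p = 0.00157). Serpine2, another inhibitor of plasminogen activators, averaged 142 ± 11.8 FPKM in KO and 139 ± 15.5 FPKM in WT (0.03, adjusted p = 0.936). None of the 3 was called at GV, where Plat was lower, nor at MI. Neither of the 2 other astacins tested was called in KO against WT at any stage. Of all tested genes, 20.8%, 17.3% and 28.6% were called at GV, MI and 14 h, so lists this short say little.

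Of 28 genes of cortical granule exocytosis, 19 were tested, and 6 were higher and 1 lower at 14 h after hCG (median 0.35), with 3 higher at GV and 1 higher and 2 lower at MI. Of all genes, 28.6%, 20.8% and 17.3% were called at 14 h, GV and MI. Napa, a SNAP that recycles fusion complexes, averaged 7.18 ± 0.340 FPKM in KO and 1.22 ± 0.259 FPKM in WT (log2 change 1.89, adjusted p = 2.21e-05). Padi6, which encodes a protein of the egg cytoplasmic lattices, averaged 2154 ± 1063 and 323 ± 49.9 FPKM (2.61, adjusted p = 0.00107). The vesicle SNARE gene Vamp3 was lower (-0.78, adjusted p = 0.0205). All 3 zona pellucida genes were higher at this stage, Zp2, the substrate of ovastacin, with 1175 ± 217 FPKM in KO and 50.3 ± 1.43 FPKM in WT (4.50, adjusted p = 1.62e-08). Astl, in the same samples, averaged 246 ± 28.9 FPKM in KO and 189 ± 72.5 FPKM in WT.

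**Figure D5:**
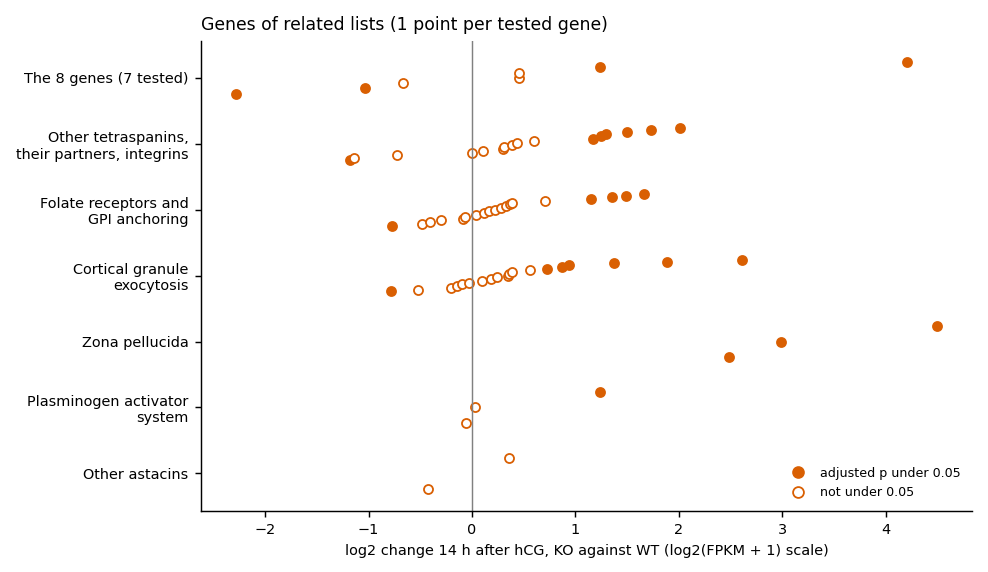
Log2 change of KO against WT 14 h after hCG (log2(FPKM + 1) scale) for the 7 tested genes and for the tested genes of the 6 related lists, 1 point per gene, filled where the adjusted p was under 0.05. Cd9 at 4.20 and Zp2 at 4.50 lie furthest to the right, and Oosp3 at -2.28 furthest to the left.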

How the data were processed

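RNA of 18 libraries, 3 in each of 6 groups, was measured by sequencing of oligo(dT)-primed, Smart-seq2 amplified cDNA. The deposited table holds FPKM per gene, computed by the authors. Per the submitters' processing notes, mm10 and DESeq2 1.38.3 were used, with no role named. The aligner and counter (not given in the sources used here) and the annotation remain unstated. Identifiers were matched to GENCODE vM21 (27829 found, 45 not). FPKM times exon length came in whole reads, within 0.05 read, for 92.8% to 93.3% of nonzero values, and the size of 1 read gave the depth. Reads carry no molecular identifiers and are amplified copies, so depth speaks for counting error alone.

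The 10320 genes with 1 FPKM or more in 3 or more libraries were tested as log2(FPKM + 1) with limma 3.58.1 in R 4.3.3, by 1 model of 6 group means with a variance trend. On this scale the change of low genes is understated. P-values are two-sided and Benjamini-Hochberg adjusted over the genes tested in each comparison, and a result was called at an adjusted p under 0.05. The fit was also run on simulated data, with independent normal noise of the same spread in all groups. Such data lack the wider spread of the KO GV libraries, so this check does not cover it. Members, lists and tests were chosen with earlier results of these data known. Besides the 8 genes and Lsm14b, the text names per list up to 4 genes with the smallest p in KO against WT 14 h after hCG whose mean was 5 FPKM or more, and per member the 2 most similar genes. Itga9 and genes that share sequence with a member are named outside this rule. The 11 lists cover tetraspanins, GPI anchoring, the plasminogen activator system, cortical granule exocytosis, zona pellucida, astacins, the sperm side of fusion, and markers of blood, of oocytes, of ovarian stroma with theca and endothelium, and of granulosa and cumulus cells. Of the 29 alternatives, 11 changed 1 choice (pseudocount, filter, scaling, groups fitted, replicate block, library weights, voom on recovered reads) and 18 left out 1 library each. The fit of library weights stopped before it converged. Figures used Python 3.11.15 and matplotlib 3.10.9.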

Additional observations from a re-analysis of the deposited data

Results flagged for a closer look

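The change of Cd9 over maturation differed between KO and WT oocytes by a test of the difference itself, in the limma fit of all 18 libraries. From MI to 14 h after hCG the log2 change was 3.33 higher in KO than in WT (adjusted p = 0.00027), and from GV to 14 h it was 4.18 higher (adjusted p = 3.29e-05). All 3 KO libraries of the last stage lay above all 3 WT libraries. The difference held in all 29 alternatives, with log2 values of 2.98 to 3.60 from MI and 3.81 to 4.52 from GV.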

How the results depend on the processing

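The alternatives were followed for 56 results of single members. These were all KO against WT results and differences between genotypes of the tested members, but only those stage changes that were called. Because of this choice, the 23 called among the 56 are no share of all tests. Of the 23, 17 kept direction and call in all 29 alternatives and 0 reversed. The calls lost in some alternative belong to Plat, Oosp1 and Oosp3 and stand in the report. The cause was not tested. The main fit did not pair samples by replicate number. Within a stage, deviations of same-numbered KO and WT libraries from their group means had correlations of -0.17 to 0.36. These values cannot show whether libraries shared mice or a batch. With the replicate block 3 rather than 4 members were called 14 h after hCG, Plat being lost (adjusted p = 0.0627), and no other member gained or lost a call.

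Small uncalled differences changed sign. Cd9 at GV was -0.28 with median-of-ratios scaling and -0.22 to 0.34 with 1 library left out, and with library weights it was 0.37 and called (adjusted p = 0.0414). Oosp2 at GV was 0.22 with quantile normalization, 0.037 with TPM scaling and -0.21 to 0.12 with 1 left out. Astl at MI ranged from -0.077 to 0.38 with 1 left out. The difference between genotypes from GV to MI was 0.30 for Izumo1r with median-of-ratios scaling, 0.13 with library weights and -0.43 to 0.066 with 1 left out. From MI to 14 h it ranged with 1 left out from -0.0082 to 0.59 for Astl and from -0.57 to 0.029 for Plat, and from GV to 14 h Oosp3 was 0.31 with median-of-ratios scaling and -0.30 to 0.23.

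Counts of called members moved as follows. With library weights 5 were called in KO against WT at GV, 2 from GV to MI in WT, 6 and 5 from GV to MI and MI to 14 h in KO, and 2 and 5 in the differences from GV to MI and GV to 14 h. That fit called 67.5%, 27.0%, 54.9%, 30.5%, 24.7% and 51.5% of all genes in these comparisons. Quantile normalization called 2 at MI, where it called 21.9% of all genes, and 5 from GV to 14 h in WT, where it called 64.9%. From GV to MI in KO the count was 1 with no filter, 1 with median-of-ratios scaling and 0 with only the groups compared. These fits called 4.28% of 27874 genes, 16.2% of 10320 genes and 414 of 10320 genes. The difference from GV to 14 h had 3 with the filter at 5 FPKM and 2 each with a pseudocount of 0.1, median-of-ratios scaling and voom. The filter, pseudocount and median-of-ratios fits called 11.9%, 6.45% and 11.3% of all genes tested there. The voom fit is among the fits of all libraries, which called 268 to 5312 genes in this difference. Counts over all genes in the fits with 1 library left out are given in the next paragraph. With 1 library left out the counts were 2 to 3, 1 to 2 and 3 to 4 in KO against WT at GV, MI and 14 h, 1 to 4, 2 to 3 and 2 to 4 over the steps in KO, and 0 to 1, 1 to 1 and 1 to 3 in the differences.

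Over all genes, calls in KO against WT were 302 to 6964 at GV, 1157 to 2633 at MI and 2171 to 5348 at 14 h over the fits of all libraries, and 900 to 4130, 1074 to 2284 and 2239 to 3502 with 1 left out. The lowest at GV came from fitting only the groups compared and the highest from library weights. Without KO GV replicate 3 the count at GV was 4130, and 900 to 1406 without any other library of that stage. At MI it was 1156 without KO MI replicate 3 and 1074 without WT MI replicate 2. Over the fits of all libraries, calls in WT were 195 to 2782 from GV to MI, 2383 to 5221 from MI to 14 h and 3925 to 7823 from GV to 14 h, and in KO 414 to 5665, 813 to 3146 and 2432 to 6745. In the differences they were 1 to 2548, 243 to 1326 and 268 to 5312. With 1 library left out they were 40 to 1438, 2500 to 3922 and 4987 to 6442 in WT, 791 to 1912, 613 to 1736 and 3052 to 4219 in KO, and 4 to 719, 222 to 737 and 215 to 2823 in the differences. The lowest from GV to MI in WT came without WT MI replicate 1, and the highest there and in the differences from GV came without KO GV replicate 3. Depth limits only Cd81, with 1 to 22 reads per library.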

Other observations

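Among genes listed for the sperm side of fusion, 4930451I11Rik averaged 1.97 ± 1.09 FPKM in KO and 2.46 ± 0.271 FPKM in WT oocytes 14 h after hCG, and 33.4 ± 20.8 and 32.0 ± 13.7 FPKM at GV (SD, n = 3). Of the 9 genes listed, 7 were in the table and 2 were tested, and 0 of these 2 were called in KO against WT at any stage. Among the marker lists, 2 of the 5 tested genes of cumulus and granulosa cells were higher in KO at GV and 1 was lower 14 h after hCG, and 1 of the 2 of theca, stroma and endothelium was higher at MI. The 1 tested blood gene was higher 14 h after hCG. Summed FPKM of the cumulus and granulosa list was 9.96 to 12.5 in KO and 5.39 to 9.25 in WT at GV. It was 6.54 to 9.53 in KO and 8.89 to 10.8 in WT 14 h after hCG, when Cd9 stood at 223 to 251 and 8.39 to 17.9 FPKM. The part of other cells in the members' results was not tested. Of the 10 oocyte markers, 3 were lower in KO at GV, 2 were lower at MI, and 3 were higher and 2 lower 14 h after hCG. The 3 higher ones were Zp1, Zp2 and Zp3, the same genes as the zona pellucida list, so they are counted in both lists. Among the lower was Dazl, with 152 ± 28.9 FPKM in KO and 657 ± 95.9 FPKM in WT (adjusted p = 1.3e-05). Of all tested genes, 13.3% were higher and 7.49% lower in KO at GV, 3.63% and 13.7% at MI, and 14.9% and 13.8% at 14 h after hCG.

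Among the members themselves, profiles over the 18 libraries were most alike for Izumo1r and Oosp2 (r = 0.836), Cd9 and Oosp2 (0.736) and Plat and Oosp3 (0.721), and least alike for Astl and Oosp3 (-0.597). The points share stage and genotype, so these values are a description. Oosp2 and Oosp3, members of 1 gene cluster, had r = -0.208, and Oosp1 and Oosp3 0.622.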
